A study of Mus musculus with 8 samples.

Results

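Atypical chemokine receptors and the signalling receptors of myeloid and gut-homing cells were followed over 8 Affymetrix mouse arrays of intestinal tissue. The receptors were 9 genes (Ackr2, Ackr3, Ackr4, Ccrl2, Ccr1, Ccr2, Ccr9, Cx3cr1 and Cxcr4) of 18193 genes with a probe set of their own. They were taken as every probe set that the platform annotation assigned to exactly 1 of them, which gave 22 of 45101 probe sets. That assignment used no signal. Of the 22 probe sets, 17 were above the detection floor in at least 2 arrays, 5 in all 8, and 4 in 0. The floor was a MAS5 signal of 64.1, and a lower signal was set to it before log2 was taken. A difference from an array at the floor is therefore a lower limit of its size.

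The mice were C57BL/6 and 110 days old. Tumours came from ACKR2-/-ApcMin/+ and from ApcMin/+ mice, and tissue without tumours came from ACKR2-/- and from wild-type (WT) mice, each in colon and in small intestine, which the labels call ileum. ACKR2 is also called D6, and in ApcMin/+ mice 1 copy of Apc, a tumour suppressor gene, is mutated and tumours of the intestine arise spontaneously. RNA was pooled within a genotype for each array, with the number of animals not given, so that each of the 8 groups had 1 array and no group had replicates. Tumours were only from Apc-mutant mice and non-tumour tissue only from mice with normal Apc, so tumour status and Apc genotype cannot be told apart, and "tumour effect" stands for both. Standard errors (SE) and adjusted p-values are from 1 limma model over 14023 genes with 2 residual degrees of freedom, in which the 2 tissues stood in for replicates of the ACKR2 effect. They therefore measure how far that effect differed between tissues, not how animals differed.

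Chemokine receptors are G protein-coupled receptors that guide white blood cells along gradients of chemokines. Atypical receptors bind chemokines but do not start that signal; most take up the ligand and remove it. ACKR2 clears inflammatory CC chemokines and is known mainly from lymphatic endothelium, CCR2 and CX3CR1 mark monocytes and resident macrophages of the gut, and CCR9 brings lymphocytes to the small intestine.

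Array-wide measures moved with the groups. The median signal of an array was 85.5 to 103 in the 4 ACKR2-/- arrays, against 115 to 133 in the 4 arrays with intact ACKR2. The 3'/5' signal ratio of Actb, a measure of RNA integrity, was 1.28 to 1.39 in ACKR2-/- arrays, against 1.13 to 1.17 in the others. Neither range overlapped between ACKR2 genotypes, while the same ratio of Gapdh did overlap (0.740 to 0.866 in ACKR2-/- arrays, against 0.772 to 0.952 in the others). Xist, transcribed from the silenced X chromosome, had 77.9 and 127 in the ACKR2-/-ApcMin/+ pools and 2818 to 4827 in the ApcMin/+ and ACKR2-/- pools, against 7807 and 9809 in the WT pools. The Y-linked Eif2s3y had 888 to 1501 in the other genotypes, against 2.66 and 2.92 in WT. Any part of sex in the contrasts with WT or with the ACKR2-/-ApcMin/+ tumours was not tested. The tissue labels of the non-tumour arrays were set against cell markers. By the limma test all 9 measured enterocyte genes were lower in non-tumour colon than in non-tumour small intestine, where 8.4% of all genes were. Of 7 colonocyte genes 4 were higher in non-tumour colon and 0 lower (13% and 8.4% of all genes).

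The receptors were compared by tumour status, by tissue and by ACKR2 genotype, each count beside the share of all tested genes. In colon tumours 2 of the 9 receptors were higher than in non-tumour colon, where 11% of all tested genes were, and 0 were lower, where 12.6% were. In small-intestinal tumours 1 of 9 was higher, where 2.77% of genes were, and 0 were lower (1.2% of genes). Between the tissues, 4 of 9 differed without tumours and 2 of 9 in tumours. In non-tumour tissue 2 were higher and 2 lower in colon than in small intestine (13% and 8.4% of genes). In tumours 0 were higher and 2 lower in colon (5.76% and 7.36% of genes). With any single array left out, or both WT or both ACKR2-/-ApcMin/+ arrays, few genes passed: at most 66 of 14023 were called for non-tumour colon against small intestine and 0 for every other comparison. The 0 of 9 receptors called there therefore says nothing about the receptors, and only the values of those fits are given.

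**Figure D1:**
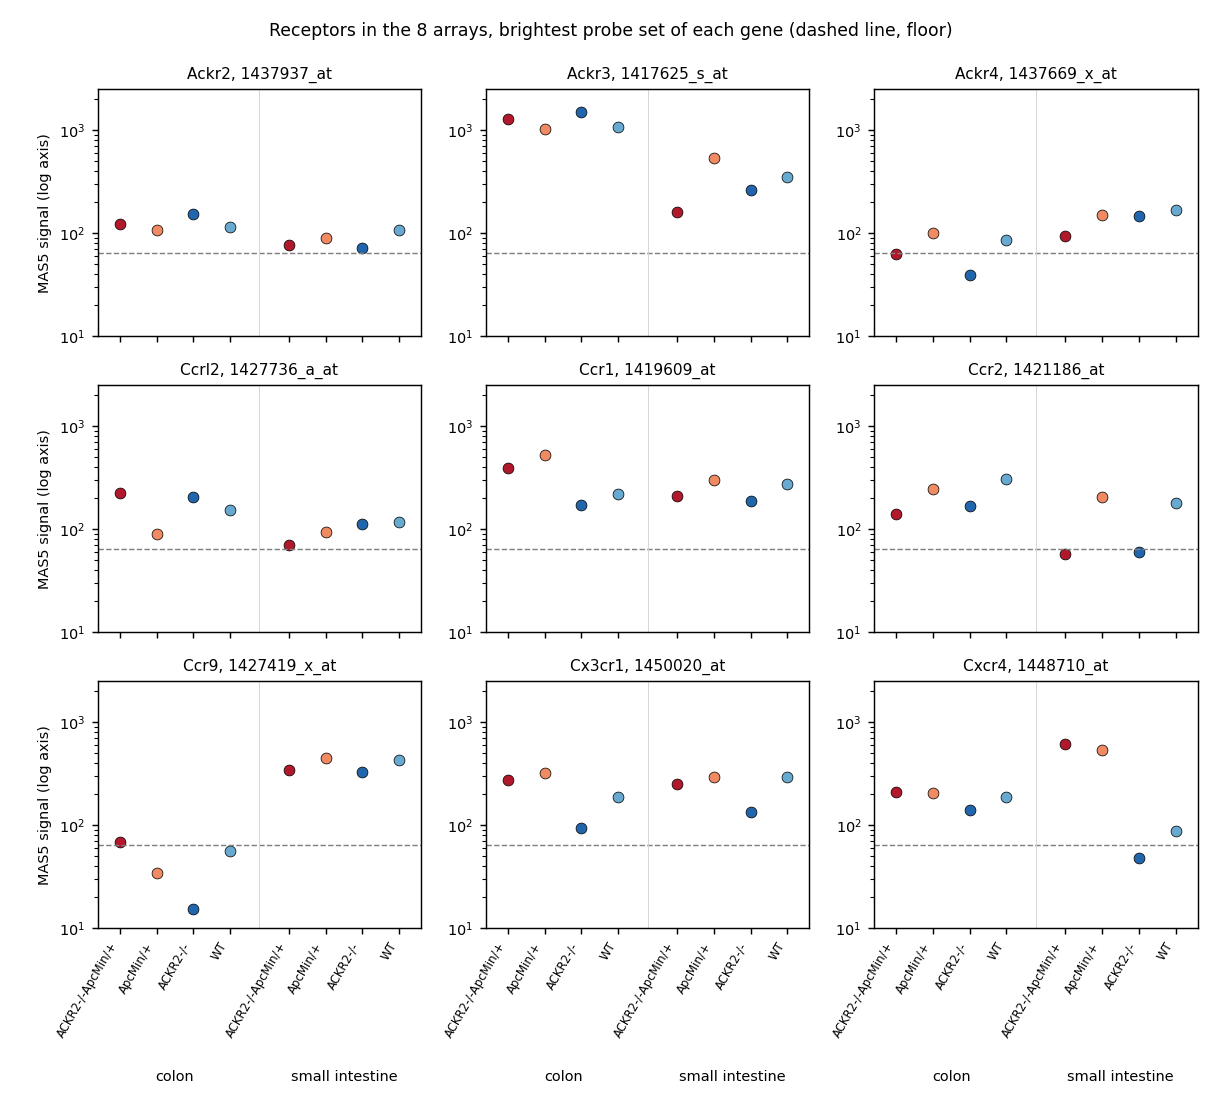
MAS5 signal (log axis) of the brightest probe set of each of the 9 receptors, with 1 point per array in 8 arrays; colon is on the left and small intestine on the right of each panel, and the dashed line is the floor of 64.1. Cxcr4 stood highest in the small-intestinal tumours (608 and 543), Ccr9 in all 4 small-intestinal arrays, and Ackr3 in all 4 colon arrays.

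Every probe set of Ackr2, the chemokine-scavenging receptor that is deleted in the mutant mice, was read first. The brightest, 1437937_at, had 122 in ACKR2-/-ApcMin/+ and 107 in ApcMin/+ colon tumours, and 153 in ACKR2-/- and 116 in WT colon. In small intestine the signals were 76.4 in ACKR2-/-ApcMin/+ and 90.7 in ApcMin/+ tumours, and 71.3 in ACKR2-/- and 107 in WT tissue. It was higher in ACKR2-/- than in intact tissue in both colon pairs and lower in both small-intestinal pairs, and all 8 values lay not far above the floor, in WT as well. The probe set 1422111_at had 76.4 in ACKR2-/-ApcMin/+ and 79.7 in ApcMin/+ colon tumours, and 52.2 in ACKR2-/- and 98.6 in WT colon. Its small-intestinal values were 22.3 in ACKR2-/-ApcMin/+ and 52.7 in ApcMin/+ tumours, and 76.7 in ACKR2-/- and 50.9 in WT tissue. It was lower in the ACKR2-/- array in 3 of 4 pairs, with 4 of 8 arrays above the floor. The probe set 1422112_at had 1.10 to 2.88 in ACKR2-/- arrays, against 2.16 to 10.5 in arrays with intact ACKR2, all far below the floor.

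**Figure D2:**
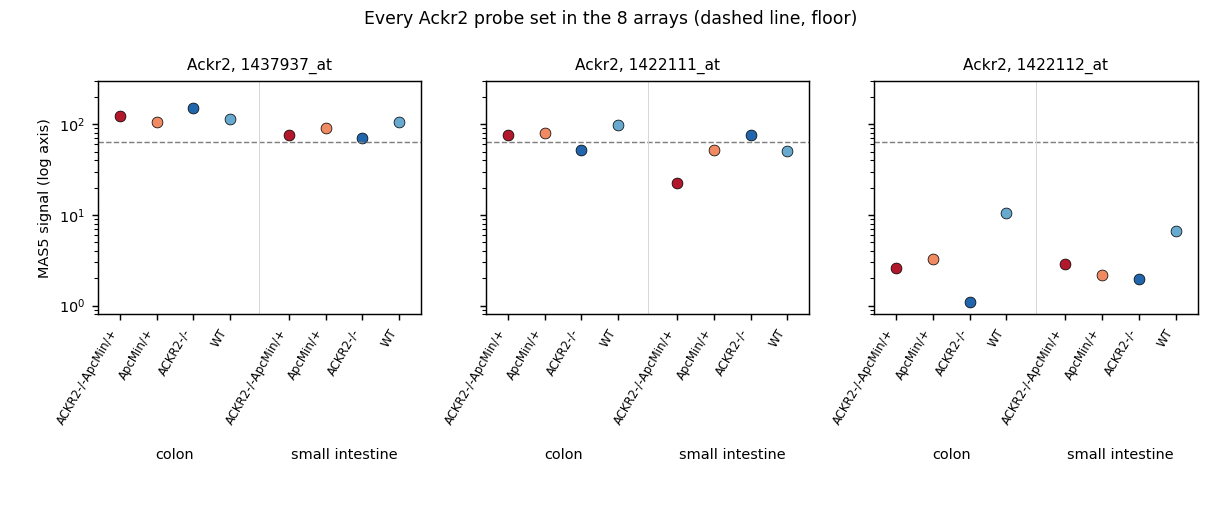
MAS5 signal (log axis) of the 3 Ackr2 probe sets in the 8 arrays, 1 point per array, with the floor of 64.1 dashed. Only 1437937_at was above the floor in all 8 arrays, and neither it nor 1422111_at was lower in every ACKR2-/- array than in its intact partner.

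The probe set 1437937_at was above the floor in 4 of 4 ACKR2-/- arrays, and 1422111_at in 2 of 4 ACKR2-/- arrays and 2 of 4 arrays with intact ACKR2. Where each probe set reads the transcript, inside or outside the deletion, is not known here, and so none of them tests the genotype. For 1437937_at the fitted ACKR2 effect was -0.03 ± 0.29 (log2, SE) in tumours and -0.09 ± 0.29 in non-tumour tissue, with limma adjusted p-values of 0.993 and 0.889. Tumours differed from non-tumour tissue by -0.22 ± 0.29 in colon and -0.07 ± 0.29 in small intestine (limma adjusted p = 0.646 and 0.938). Colon differed from small intestine by 0.61 ± 0.29 in non-tumour tissue and 0.46 ± 0.29 in tumours (0.198 and 0.341). With arrays centred on their medians, 1437937_at was higher in ACKR2-/- in 3 of 4 pairs. That centring moved the median difference of all genes up as well, to 0.18 in tumours and 0.29 in non-tumour tissue. Among 6 measured markers of lymphatic endothelium, the cell type in which ACKR2 is best known, Lyve1, Flt4, Reln and Mmrn1 fell in colon tumours (log2 differences of -2.27, -1.08, -1.72 and -1.84). Prox1 rose in colon tumours by 4.05 and in small-intestinal tumours by 3.15. Their summed signal was 3151 and 3222 in colon tumours, against 5365 and 3902 in non-tumour colon. Any part of these cells in the Ackr2 signal was not tested.

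The 160 bases before the RefSeq start of Ackr2 are shown because the gene is the one deleted (GRCm38.p6, chr9:121898195-121898354, plus strand). Capitals would mark the letters CTTTGA (bound by TCF/LEF factors), GAGGAA (bound by PU.1, the myeloid factor) or TATAAA, on either strand.
Ackr2: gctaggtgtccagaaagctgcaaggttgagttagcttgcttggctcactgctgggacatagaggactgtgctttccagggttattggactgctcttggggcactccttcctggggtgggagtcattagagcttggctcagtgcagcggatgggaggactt
None of the 3 motifs was found here or in the rest of its window, which runs from 250 bases before to 50 bases after the start. Of all 32851 RefSeq promoters of this length, 16.0% held CTTTGA, 28.3% GAGGAA and 13.6% TATAAA. The TCF/LEF letters were in 0 of the 11 starts that RefSeq gives the 9 receptors.

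Ackr3, which takes up CXCL12, was higher in colon than in small intestine. Its only probe set, 1417625_s_at, had 1295 in ACKR2-/-ApcMin/+ and 1022 in ApcMin/+ colon tumours, and 1516 in ACKR2-/- and 1084 in WT colon. Its small-intestinal signals were 161 in ACKR2-/-ApcMin/+ and 544 in ApcMin/+ tumours, and 261 in ACKR2-/- and 355 in WT tissue. All 4 colon arrays were above all 4 small-intestinal arrays, a separation that 8.99% of tested genes had in this direction. Colon was higher by 2.07 ± 0.50 in non-tumour tissue, a 4.21-fold difference (limma adjusted p = 0.0335), but not called in tumours (1.96 ± 0.50, adjusted p = 0.0533). The tumour difference did pass with no floor (adjusted p = 0.0375) and among genes above the floor in all 8 arrays (0.0244). Without any 1 array the difference in non-tumour tissue was 1.61 to 2.54. With the mean of all probe sets of each gene, which leaves Ackr3 with its 1 probe set at 2.07, its adjusted p was 0.0597. Between ACKR2-/-ApcMin/+ and ApcMin/+ tumours the gene was 1.27-fold higher in colon and 3.37-fold lower in small intestine. Its SE was the widest among the 9 receptors, and the ACKR2 effect in tumours was -0.71 ± 0.50 (adjusted p = 0.524).

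Ackr4, which removes the homing chemokines CCL19, CCL21 and CCL25, was higher in non-tumour small intestine on its brightest probe set. That probe set, 1437669_x_at, had 62.2 in ACKR2-/-ApcMin/+ and 99.6 in ApcMin/+ colon tumours, and 39.5 in ACKR2-/- and 85.7 in WT colon. Small-intestinal signals were 93.8 in ACKR2-/-ApcMin/+ and 149 in ApcMin/+ tumours, and 148 in ACKR2-/- and 168 in WT tissue. Both ACKR2-/- colon arrays were at or under the floor, so the colon differences are lower limits. Non-tumour colon was 2.13-fold lower than non-tumour small intestine (log2 -1.09 ± 0.20, limma adjusted p = 0.0148). In tumours the difference was -0.56 ± 0.20 (0.123). The other probe sets did not pass in non-tumour tissue, with -0.72 ± 0.27 on 1437668_at and -0.24 ± 0.18 on 1426139_a_at (limma adjusted p = 0.125 and 0.426 when every probe set was fitted).

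The 3 probe sets of Ackr4 disagreed on ACKR2 genotype. On 1437669_x_at the ACKR2-/- array was lower in 4 of 4 pairs and on 1437668_at in 3 of 4. On 1426139_a_at it was lower in 1 of 4: the signal was 171 in ACKR2-/- against 37.9 in WT colon, and 186 in ACKR2-/- against 81.6 in WT small intestine. When every probe set was fitted, 1426139_a_at was called for ACKR2 genotype, 1.30 ± 0.18 higher in ACKR2-/- non-tumour tissue (limma adjusted p = 0.0197). It was 1 of 17 receptor probe sets called there, beside 8.33% of all 25776 probe sets. This probe set was above the floor in 3 arrays, all of them non-tumour: both ACKR2-/- arrays and WT small intestine. WT colon and all tumour arrays were set to the floor. It was tested only because of arrays where it was high, so its calls for ACKR2 genotype and for colon tumours add no support. On 1437669_x_at that ACKR2 difference was -0.30 ± 0.21 (adjusted p = 0.387). Colon tumours were lower than non-tumour colon on 1426139_a_at (-0.71 ± 0.18, adjusted p = 0.0409, where 20% of probe sets were called), and on 1437669_x_at the tumour effect was 0.11 ± 0.21 (0.762).

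Ccrl2, which binds chemerin and presents it without signalling, did not separate the groups. It had 223 in ACKR2-/-ApcMin/+ and 90.5 in ApcMin/+ colon tumours, and 205 in ACKR2-/- and 154 in WT colon. Small intestine had 70.9 in ACKR2-/-ApcMin/+ and 92.8 in ApcMin/+ tumours, and 113 in ACKR2-/- and 117 in WT tissue. The ACKR2-/-ApcMin/+ colon tumour pool was 2.47-fold above its ApcMin/+ partner, while the small-intestinal tumour pair ran the other way. In the 8 comparisons its limma adjusted p-values were 0.244 to 0.918.

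Ccr1, a receptor for CCL3, CCL5, CCL6 and CCL9 on monocytes and neutrophils, rose in colon tumours. Its probe set 1419609_at had 392 in ACKR2-/-ApcMin/+ and 527 in ApcMin/+ colon tumours, against 173 in ACKR2-/- and 219 in WT colon. The small-intestinal values were 208 in ACKR2-/-ApcMin/+ and 302 in ApcMin/+ tumours, against 186 in ACKR2-/- and 274 in WT tissue. The colon tumours were above all other arrays. The tumour effect in colon was 1.22 ± 0.25, a 2.33-fold difference (limma adjusted p = 0.0196), and 2.26-fold and 2.41-fold in its pairs. In small intestine it was 0.15 ± 0.25 (0.788), and the difference between the tissues was not called (1.07 ± 0.35, adjusted p = 0.18). Without any 1 array the colon value stayed at 1.11 to 1.33. The second probe set, 1419610_at, was at 4.33 to 40.3, under the floor throughout.

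Cx3cr1, the fractalkine receptor of gut macrophages, also rose in colon tumours. Its probe set 1450020_at had 275 in ACKR2-/-ApcMin/+ and 321 in ApcMin/+ colon tumours, against 93.7 in ACKR2-/- and 188 in WT colon. Small-intestinal values were 254 in ACKR2-/-ApcMin/+ and 293 in ApcMin/+ tumours, against 133 in ACKR2-/- and 296 in WT tissue. The 2 ACKR2-/- non-tumour arrays were the lowest of the 8. The colon tumour effect was 1.16 ± 0.24, or 2.24-fold (limma adjusted p = 0.0219; 1.09 to 1.23 with 1 array left out). With the floor at the 60th percentile it was 0.63 (adjusted p = 0.0594). In small intestine the effect was 0.46 ± 0.24 (0.36), 1.91-fold higher in the ACKR2-/- pair and 1.01-fold lower in the ACKR2-intact pair. The second probe set, 1450019_at, was at 1.36 to 40.3.

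Most neutrophil markers, and a few macrophage markers, rose in the colon tumours in which Ccr1 and Cx3cr1 were higher. Of 11 tested macrophage and monocyte markers 2 rose (11% of all genes did), Cd14 by 1.13 and Lyz2 by 1.55 on the log2 scale, and 9 were not called. The list's summed signal was 27787 and 22862 in colon tumours, against 15220 and 12256 in non-tumour colon. In small intestine it was 16405 and 15077 in tumours, against 13288 and 15481 in non-tumour tissue. The sum was highest in the colon tumours. Of 6 tested neutrophil markers 4 rose in colon tumours, among them S100a9 (4.36 ± 0.27, limma adjusted p = 0.00108) and Mmp9 (3.02 ± 0.33). Their sums were 11940 and 13555 in colon tumours, against 571 and 1129 in non-tumour colon. Camp, a neutrophil granule gene, was at or below the floor in all arrays. The part of these cells in the receptor signals was not tested, and in bulk tissue more cells of a type and more RNA per cell cannot be told apart.

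The windows before Ccr1 and Cx3cr1 are shown because both genes rose in the same comparison. Ccr1 lies at chr9:123968693-123968852 and Cx3cr1 at chr9:120068297-120068456, both on the minus strand of GRCm38.p6, and the PU.1 letters GAGGAA are in capitals.
Ccr1: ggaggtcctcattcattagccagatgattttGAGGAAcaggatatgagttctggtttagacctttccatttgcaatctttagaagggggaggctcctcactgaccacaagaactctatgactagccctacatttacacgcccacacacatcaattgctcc
Cx3cr1: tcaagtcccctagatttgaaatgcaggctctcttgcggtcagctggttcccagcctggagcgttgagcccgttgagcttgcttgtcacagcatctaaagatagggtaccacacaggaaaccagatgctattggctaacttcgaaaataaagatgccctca
Ccr1 held GAGGAA at position -129 from the start, a match found in 28.3% of promoters of this length, and Cx3cr1 held none of the 3 motifs.

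Ccr2, the CCL2 receptor of inflammatory monocytes, was lower in every ACKR2-/- array than in every array with intact ACKR2, but did not pass the test. The probe set 1421186_at had 140 in ACKR2-/-ApcMin/+ and 244 in ApcMin/+ colon tumours, and 168 in ACKR2-/- and 305 in WT colon. In small intestine it had 57.8 in ACKR2-/-ApcMin/+ and 206 in ApcMin/+ tumours, and 60.1 in ACKR2-/- and 180 in WT tissue. The 4 ACKR2-/- arrays (57.8 to 168) were all below the 4 arrays with intact ACKR2 (180 to 305), a separation that 4.83% of tested genes had in this direction. Scaling each array to a common median left the difference in 4 of 4 pairs, and brought the groups closer, to 63.4 to 185 against 172 to 256, so that they overlapped. The fitted difference was -1.24 ± 0.32 in tumours (limma adjusted p = 0.189) and -1.17 ± 0.32 in non-tumour tissue (0.0963), neither of which passed. With median centring it was -1.04 and -0.84 (0.166 and 0.137), and with the floor at the 60th percentile -0.22 and -0.34 (0.578 and 0.317). Of its other probe sets, 1421188_at and 1421187_at were also lower in ACKR2-/- in 4 of 4 pairs, with 5 and 1 of 8 arrays above the floor, and 1460067_at in 2 of 4.

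ACKR2 genotype was set against intact ACKR2 to ask how the other receptors stood when the scavenger was missing. The limma test called 0 of 9 receptors in tumours, where 0.0357% of all genes were called. It called 0 of 9 in non-tumour tissue, where 0.685% were, and 0 of 9 for the difference between the ACKR2 effects (0.00713%). With so few genes called, 0 of 9 is near the share over all genes. The share in non-tumour tissue depended on the processing: with median centring 16.9% of genes were called, and again 0 of 9 receptors. At an unadjusted p under 0.05 there were 2 receptors in tumours (Ackr4 and Ccr2), 2 in non-tumour tissue (Ccr2 and Cx3cr1) and 1 for the difference (Cx3cr1), beside 2188, 3478 and 1131 of 14023 genes. Ackr4, Ccr1, Ccr2 and Cx3cr1 had lower values in the ACKR2-/- array in 4 of 4 pairs, as did 19.1% of tested genes. After scaling to a common median only Ccr2 among them was lower in 4 of 4 pairs, and Ackr4, Ccr1 and Cx3cr1 were lower in 3 of 4. For Cx3cr1 the colon tumour pair was counted as lower at only -0.01. The share of all genes lower in as many pairs after scaling was not computed, so these counts have no share beside them. With that scaling the median difference of all genes was 0.18 in tumours and 0.29 in non-tumour tissue, and without it -0.03 and -0.02.

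Cx3cr1 stood at -1.08 ± 0.24 in non-tumour tissue (limma adjusted p = 0.0762) and -0.22 ± 0.24 in tumours (0.704), and the difference between these was 0.86 ± 0.35 (0.617). With median centring the values were -0.70 and 0.05 (adjusted p = 0.0962 and 0.948). When only genes above the floor in all 8 arrays were tested, the non-tumour value passed (adjusted p = 0.0383). Ccr1 stood at -0.48 ± 0.25 in tumours (0.399) and -0.45 ± 0.25 in non-tumour tissue (0.32). Of 11 tested macrophage and monocyte markers 0 were called for ACKR2 genotype in either tissue state. Of all genes 0.0357% were called in tumours and 0.685% in non-tumour tissue, so this 0 is near the share over all genes and says nothing about these markers. Their summed signal was 13288 to 27787 in ACKR2-/- arrays, against 12256 to 22862 in arrays with intact ACKR2. Median signal and the Actb ratio moved with ACKR2 genotype as given above, and their part in these differences was not tested beyond the scaling.

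**Figure D3:**
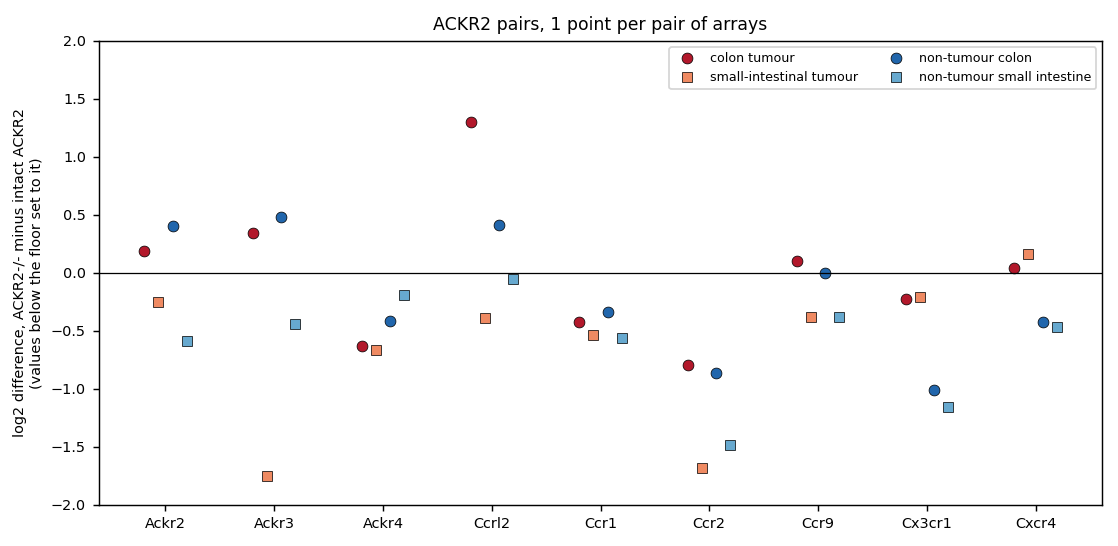
Log2 difference of ACKR2-/- minus intact ACKR2 for the brightest probe set of each receptor, with 1 point for each of the 4 pairs of arrays and values below the floor set to it. Ccr2 was below 0 in all 4 pairs (-1.68 to -0.80), as were Ackr4, Ccr1 and Cx3cr1, while Ackr2, Ackr3, Ccrl2 and Cxcr4 had points on both sides.

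Ccr9, the receptor for the small-intestinal chemokine CCL25, was higher in small intestine in tumours and in non-tumour tissue. Its probe set 1427419_x_at had 69.0 in ACKR2-/-ApcMin/+ and 34.5 in ApcMin/+ colon tumours, and 15.3 in ACKR2-/- and 56.4 in WT colon. In small intestine it had 346 in ACKR2-/-ApcMin/+ and 451 in ApcMin/+ tumours, and 327 in ACKR2-/- and 427 in WT tissue. All colon arrays were below all small-intestinal arrays, as were 7.31% of genes, and 3 of the 4 colon arrays were under the floor. The ending _x_at, here as for Ackr4, marks a probe set that shares probe sequence with other transcripts. Non-tumour colon was at least 5.10-fold lower than non-tumour small intestine in ACKR2-/- mice and at least 6.66-fold lower in WT mice (fitted log2 difference -2.54 ± 0.26, limma adjusted p = 0.0023). Colon tumours were 5.02-fold lower than small-intestinal tumours in ACKR2-/-ApcMin/+ mice and at least 7.04-fold lower in ApcMin/+ mice (-2.57 ± 0.26, adjusted p = 0.00326). The probe set 1421920_a_at was also lower in colon in both states (-1.03 in non-tumour tissue and -1.17 in tumours, limma adjusted p = 0.0291 and 0.028, where 17.1% and 9.99% of probe sets were called). It was above the floor only in the 4 small-intestinal arrays, and so was tested only because of the arrays where it was high. Its calls therefore add no support to those of 1427419_x_at, which itself passed the filter through small intestine. The other 3 probe sets were close to or under the floor. Tumour status moved Ccr9 by 0.05 ± 0.26 in colon and 0.08 ± 0.26 in small intestine, neither called (0.928 and 0.912).

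T cell markers, like Ccr9, were lower in colon than in small intestine. Of 7 tested, 5 were lower in non-tumour tissue and 6 in tumours (8.4% and 7.36% of genes). Their summed signal was 296 to 483 in colon, against 1607 to 3226 in small intestine. Within small intestine the sum was 3226 in ACKR2-/-ApcMin/+ and 2031 in ApcMin/+ tumours, and 2694 in ACKR2-/- and 1607 in WT tissue. Ccr9 went the other way there, lower in ACKR2-/- in both pairs. Cd4 was at or below the floor in all arrays. The part of these cells in the Ccr9 signal was not tested.

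Cxcr4, the CXCL12 receptor of lymphocytes, myeloid cells and progenitors, rose in small-intestinal tumours. Its only probe set, 1448710_at, had 608 in ACKR2-/-ApcMin/+ and 543 in ApcMin/+ small-intestinal tumours, against 48.2 in ACKR2-/- and 88.5 in WT small intestine. In colon it had 209 in ACKR2-/-ApcMin/+ and 204 in ApcMin/+ tumours, against 140 in ACKR2-/- and 188 in WT tissue. All 4 tumour arrays were above all 4 non-tumour arrays, as were 6.78% of genes. The tumour effect in small intestine was 2.93 ± 0.24, or 7.62-fold (limma adjusted p = 0.00489), at least 9.49-fold in the ACKR2-/- pair, where the non-tumour array was under the floor, and 6.13-fold in the other. In colon it was 0.35 ± 0.24 (adjusted p = 0.349). The difference between the tissues was itself called, at -2.58 ± 0.34 for colon minus small intestine (0.0271), where 2.25% of genes were called. Without any 1 array the small-intestinal effect was 2.867 to 2.995. With the floor at the 60th percentile it was 1.58 (0.00985).

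The order of the tissues for Cxcr4 turned with tumour status. In non-tumour tissue colon was higher than small intestine by 1.11 ± 0.24 (limma adjusted p = 0.0251), and in tumours it was lower (-1.48 ± 0.24, adjusted p = 0.0139). Averaged over genotypes the levels were 574 in small-intestinal tumours, 207 in colon tumours, 162 in non-tumour colon and 75.3 in non-tumour small intestine, with a fitted SD of 1.18-fold for 1 array. In that order, the difference between colon tumours and non-tumour colon was not called (0.35 ± 0.24, limma adjusted p = 0.349). The other neighbours differed by the test. With the floor at the 60th percentile, above the non-tumour values, the difference between non-tumour tissues was gone (0.00, adjusted p = 1).

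B cell and mast cell markers, like Cxcr4, rose in small-intestinal tumours, where 2.77% of all genes did. Of 8 tested B cell markers 7 rose there, among them Ms4a1 (4.61 ± 0.35, limma adjusted p = 0.00415) and Cr2 (3.38 ± 0.27, 0.00415). Their summed signal was 12051 and 8132 in small-intestinal tumours, against 607 and 1800 in non-tumour small intestine. In colon the sum was 534 and 869 in tumours, against 584 and 1962 in non-tumour tissue. Of 8 tested mast cell markers 6 rose in small-intestinal tumours, among them Mcpt1, by 6.76 on the log2 scale. Their sum was 27443 and 14242 in these tumours, against 894 and 965 in non-tumour tissue. In colon tumours, where Cxcr4 was not called, 1 of 8 B cell markers was lower and 3 of 8 mast cell markers were higher (12.6% and 11% of all genes). Between the non-tumour tissues, where Cxcr4 was higher in colon, 0 of 8 B cell markers were called, beside 21.4% of all genes. There 1 of 8 mast cell markers was higher in colon, as were 13% of all genes. The counts of 1 of 8 are near the shares over all genes. The part of B cells and mast cells in the Cxcr4 signal was not tested.

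The windows before Cxcr4 and Ackr3, the 2 receptors for CXCL12, are shown with TATAAA in capitals, on chr1:128592300-128592459 (minus strand) for Cxcr4 and chr1:90203820-90203979 (plus strand) for Ackr3 (RefSeq, GRCm38.p6).
Cxcr4: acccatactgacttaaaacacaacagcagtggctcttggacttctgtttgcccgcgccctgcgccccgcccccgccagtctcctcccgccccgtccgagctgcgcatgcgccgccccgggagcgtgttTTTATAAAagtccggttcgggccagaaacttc
Ackr3: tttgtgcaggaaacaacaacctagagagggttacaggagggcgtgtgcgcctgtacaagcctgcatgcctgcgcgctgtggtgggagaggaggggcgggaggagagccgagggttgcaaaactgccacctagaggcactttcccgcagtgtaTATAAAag
In Cxcr4 the letters TATAAA were read on both strands in overlapping matches, and in Ackr3 they lay at position -8. The match is in 13.6% of promoters of this length, and the PU.1 letters were in neither window.

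**Figure D4:**
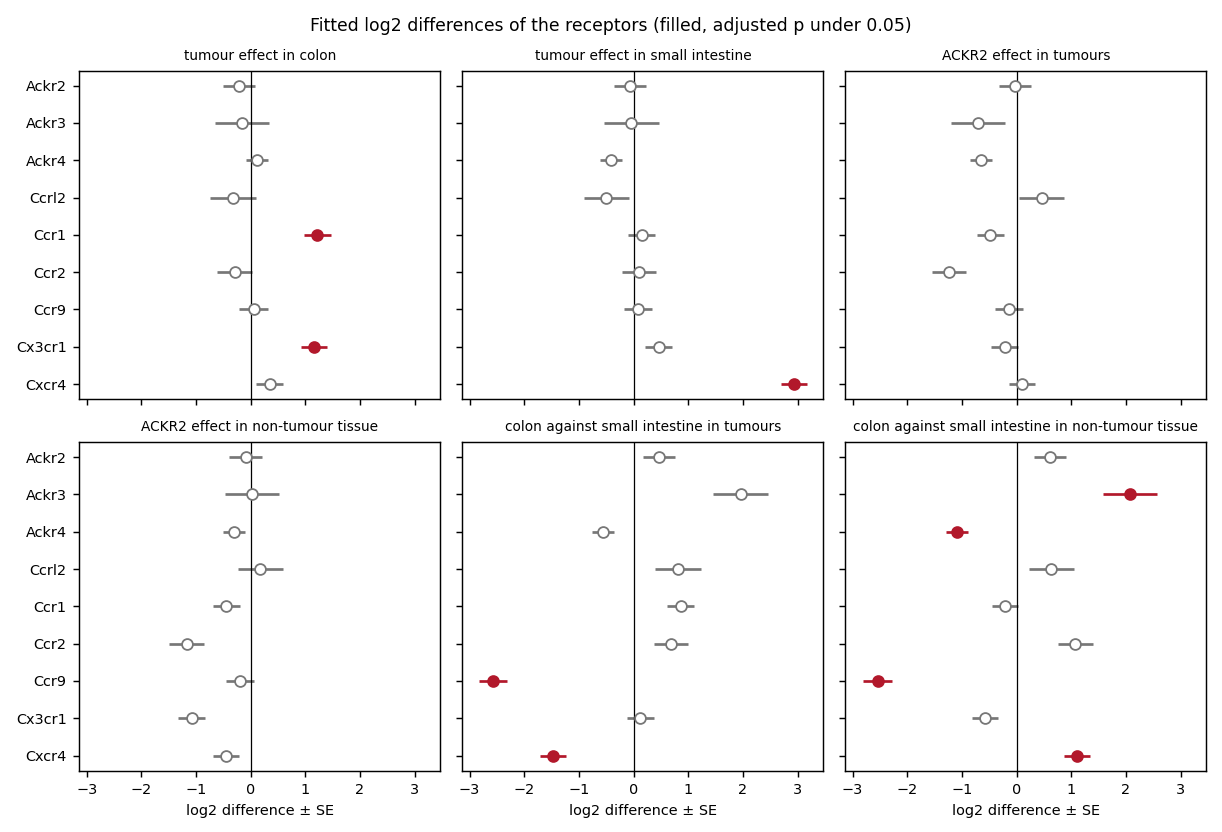
Fitted log2 differences with SE for the 9 receptors in 6 comparisons; filled red points passed a limma adjusted p of 0.05. Cxcr4 in small-intestinal tumours (2.93) was the largest tumour effect, Ccr1 and Cx3cr1 passed in colon tumours, and no point was filled for ACKR2.

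The ligands of these receptors were read from lists of 11 ACKR2 ligands and 9 ligands of the other receptors, of which Ccl19 and Ccl21a had no probe set here. In colon tumours 4 of 11 ACKR2 ligands rose and 0 fell (11% and 12.6% of all genes), with a list median of 0.76 on the log2 scale, beside 0.00 for all genes. They were Ccl2, the CCR2 ligand (1.65 ± 0.20, limma adjusted p = 0.00518), Ccl17, Ccl3 and Ccl7. Ccl3 and Ccl7 were above the floor in 2 of 8 arrays, both of them colon tumours. These genes were tested only because of the arrays where they were high, so their calls add no support to the count. Ccl2 had 213 in ACKR2-/-ApcMin/+ and 189 in ApcMin/+ colon tumours, against 51.9 in ACKR2-/- and 62.3 in WT colon. Its receptor gene Ccr2 was not called there (-0.29 ± 0.32, adjusted p = 0.554). In small-intestinal tumours 1 fell, Ccl8 (-1.48 ± 0.29, adjusted p = 0.0485). For ACKR2 genotype 0 of 11 were called in tumours and in non-tumour tissue, near the 0.0357% and 0.685% of all genes that were.

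Ligands of the other receptors fell in colon tumours in 3 of 7 measured cases (12.6% of all genes) and rose in 1 (11%). Cxcl12, the ligand of CXCR4 and ACKR3, had a log2 difference of -1.81 ± 0.18 (limma adjusted p = 0.00326). Cx3cl1, which encodes fractalkine, had -1.29 ± 0.21 (0.0108) and Rarres2, the chemerin gene, -1.43 ± 0.25 (0.0134). Cxcl12 had 367 in ACKR2-/-ApcMin/+ and 846 in ApcMin/+ colon tumours, against 1625 in ACKR2-/- and 2346 in WT colon. Ccl9, a CCR1 ligand, rose by 1.75 ± 0.19 (0.00412). Cxcl12 and Cx3cl1 were lower in the colon tumours, where the receptor gene Cx3cr1 was higher and Cxcr4 was not called. Smooth muscle markers fell with them in 10 of 10 cases, to summed signals of 9834 and 36200 in colon tumours, against 116329 and 137523 in non-tumour colon, and their part was not tested.

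In small-intestinal tumours Rarres2 fell (-1.69 ± 0.25, limma adjusted p = 0.0244), and Cxcl12 did not pass (-0.73 ± 0.18, 0.0913). Cxcl12 had 313 in ACKR2-/-ApcMin/+ and 707 in ApcMin/+ small-intestinal tumours, against 580 in ACKR2-/- and 1046 in WT tissue. It was lower in ACKR2-/- than in intact tissue in all 4 pairs, as were 19.1% of tested genes, and the median signal of the arrays was lower there too. The fitted ACKR2 difference of Cxcl12 was -1.19 ± 0.18 in tumours (limma adjusted p = 0.127) and -0.69 ± 0.18 in non-tumour tissue (0.0917). Ccl25, the CCR9 and ACKR4 ligand, had 7020 to 16189 in small intestine and 71.9 to 158 in colon, a log2 difference of -7.19 ± 0.19 for colon in non-tumour tissue (adjusted p = 2.53e-05). Ccl25 and Ccr9 were both lower in colon, in tumours as in non-tumour tissue.

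**Figure D5:**
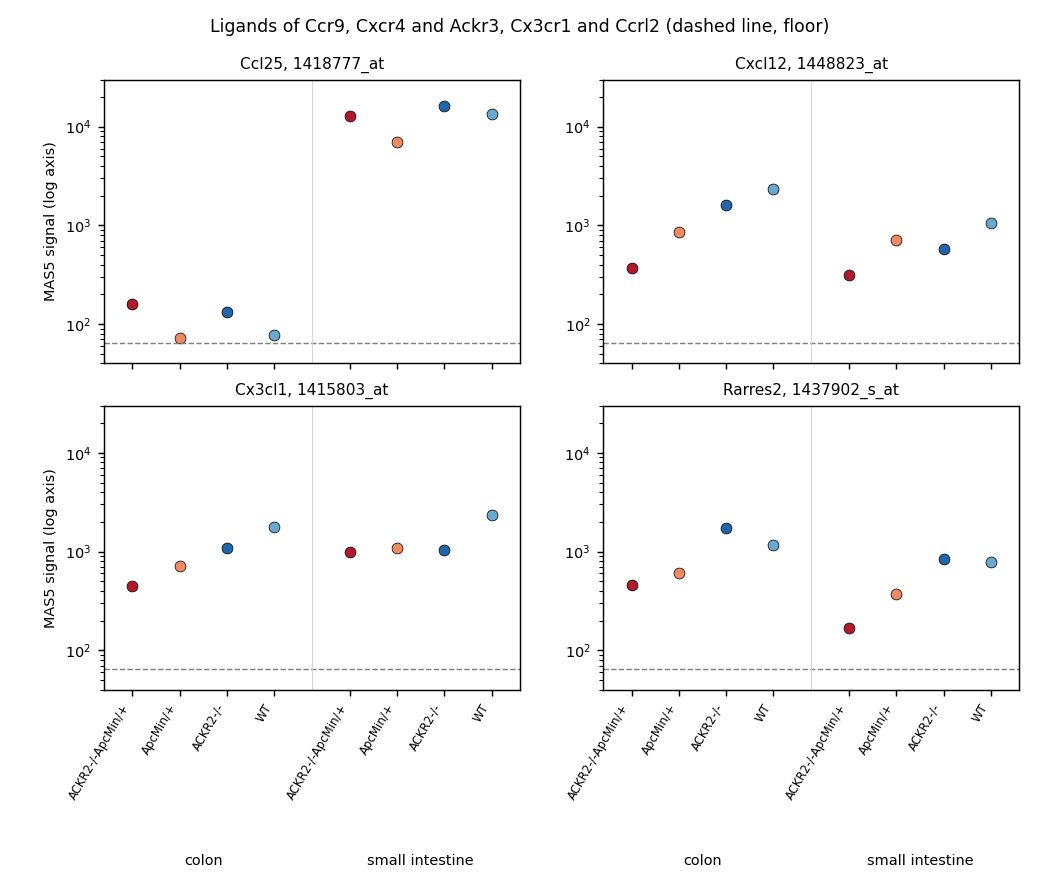
MAS5 signal (log axis) of 4 ligand genes in the 8 arrays, 1 point per array, with the floor of 64.1 dashed. Ccl25 was at least 7020 in small intestine and at most 158 in colon, and Cxcl12 and Rarres2 were lower in the tumour arrays than in the non-tumour arrays of each tissue when the same ACKR2 genotype is compared.

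Of 16 other chemokine receptors listed, 14 had a probe set and 9 were tested, as Ccr3, Ccr4, Ccr8, Cxcr2 and Xcr1 were at or below the floor in all arrays. In small-intestinal tumours 3 of 9 rose (2.77% of all genes): Ccr6 by 2.82 ± 0.25 (limma adjusted p = 0.00618), Cxcr5 by 2.30 ± 0.20 and Ccr7 by 0.91 ± 0.17. These are receptors of B cells, T cells and dendritic cells, and Cxcr4 was the member called in the same contrast. Ccr7 was above the floor only in the small-intestinal tumours (112.5 in ACKR2-/-ApcMin/+ and 129.9 in ApcMin/+). It was tested only because of the arrays where it was high, so its call adds no support to the count. In colon tumours 0 of 9 were called. Ccr6 had 876 in ACKR2-/-ApcMin/+ and 701 in ApcMin/+ small-intestinal tumours, against 78.6 in ACKR2-/- and 157 in WT tissue. For ACKR2 genotype 0 of 9 were called in either state, near the share of all genes (0.0357% in tumours and 0.685% in non-tumour tissue).

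Among 18 measured genes of receptor signalling and related chemoattractant receptors, 2 rose and 2 fell in colon tumours, close to the 11% and 12.6% of all genes that did. Fpr2, a formyl peptide receptor of phagocytes, rose by 2.41 ± 0.26 (limma adjusted p = 0.00388) and Prex1, which links G proteins to Rac, by 1.30 ± 0.27. Fpr2 was above the floor in 4 arrays, all of them tumours, so its difference is a lower limit. It was tested only because of the arrays where it was high, and its call adds no support to the count. Rgs1, an inhibitor of G protein signalling, fell (-1.62 ± 0.27, 0.0112), as did Arrb1, which encodes a beta-arrestin (-1.16 ± 0.27, 0.0273). In small-intestinal tumours 0 of 18 were called. Arrb2, a second beta-arrestin, had 98.1 to 127 in ACKR2-/- arrays, against 237 to 553 in arrays with intact ACKR2. Gnai2 (3010 to 3541, against 4642 to 5937) and Grk3 (348 to 399, against 466 to 533) were separated in the same direction. Such a separation in this direction was found for 4.83% of tested genes, and the median signal of the arrays also moved with ACKR2 genotype. Of the 18 genes, 0 were called for ACKR2 genotype, near the share of all genes (0.0357% in tumours and 0.685% in non-tumour tissue).

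The genes closest in pattern to each receptor were those with the smallest root mean square difference of mean-centred log2 values over the 8 arrays. For Cx3cr1 they were Prex1 (0.17), Ncapd2 and Lig1, for Ccr1 Ruvbl2 (0.14), Cdc25c and Slc11a1, and for Ccr2 G6pc3 (0.15), Rbak and Pdgfra. For Cxcr4, whose values ranged over 3.25 on the log2 scale, the closest gene was Ms4a4c (0.36), followed by Adgrg2 and Prdm16. Ackr3 was closest to Cav2 (0.30), Ctsk and Cbs, and Ccr9 to Sowaha (0.21), Slc25a22 and Fam20a. The dim receptors Ackr2, Ackr4 and Ccrl2 were closest to Zfp119b (0.12), Dcbld1 (0.14) and Casp12 (0.21).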

How the data were processed

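The authors deposited 1 intensity value per probe set and array, on a linear scale, made with MAS5 and Partek per the submitters' processing notes; versions and further steps were not given in the sources used here. On every array the deposited intensities averaged 500 after 2% of values were left out at each end. Per the labels' protocols, pooled RNA was amplified and biotin-labelled for Affymetrix arrays. No array scans were used.

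Of 45101 probe sets 64 were controls. A gene was named where the platform annotation gave exactly 1 (34945 probe sets; 932 had several and 9160 none). The floor (64.1) was the median over arrays of the 40th percentile. The probe set with the highest mean stood for a gene, and 14023 of 18193 genes, those with 2 or more arrays over the floor, were tested. R 4.3.3 and limma 3.58.1 fitted 4 tissue-by-tumour means and 1 ACKR2 effect per tumour state, with a trended prior; p-values were adjusted by Benjamini-Hochberg over all genes at 0.05, and the prior added 4.16 degrees of freedom to the 2 residual ones. The procedure was tested on simulated data. With 1 array per group, the number of arrays limits the precision. RefSeq promoter windows were those of GRCm38.p6, with all 9 genes matched. The receptors, the gene lists and the alternatives were chosen with earlier results of these data known. All 9 receptors were named with every probe set, and of other lists the called genes or those with the largest difference.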

Additional observations from a re-analysis of the deposited data

Results flagged for a closer look

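Cxcr4 differed between the tissues in its tumour effect: the difference of the tumour effects, colon minus small intestine, was -2.58 on the log2 scale and passed the limma test of that difference (adjusted p = 0.0271). Its tumour effect was 0.35 ± 0.24 in colon and 2.93 ± 0.24 in small intestine (SE, log2). Leaving out any 1 array gave -2.65 to -2.52. Those fits, with 1 residual degree of freedom, called 0 of 14023 genes for this difference, so their p-values do not bear on Cxcr4.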

How the results depend on the processing

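No paired analysis was possible because the labels give no replicate numbers and each group had 1 array; the model as fitted is already the same as a genotype block with a tissue effect per tumour state. Quantile normalization, median centring, the floor at the 25th percentile, no floor, no trend, the mean of all probe sets and a fit of every probe set each left the counts of receptors called as they were, within 1.5 times. With the floor at the 60th percentile 7 receptors were tested, with 1 called for the tumour effect in colon (2 as reported) and 2 for non-tumour colon against non-tumour small intestine (4 as reported). Testing only genes above the floor in all 8 arrays left 5 receptors, without Ackr4, Ccr2, Ccr9 and Cxcr4. There 1 was called for the ACKR2 effect in non-tumour tissue (Cx3cr1) and 1 for non-tumour colon against small intestine (Ackr3), and the counts of 0 for the tumour effect in small intestine and 0 for the difference of the tumour effects come from Cxcr4 not being tested. Ackr3 (adjusted p = 0.0244) and Ccr1 (0.0452) newly passed there for colon tumours against small-intestinal tumours. The ACKR2 effect in non-tumour tissue, with 96 genes called as reported, had 2375 with median centring, 851 among genes above the floor in all 8 arrays, 427 with no floor, 5 with quantile normalization, 1 with the mean of all probe sets, 1 with no trend and 0 with no filter. With no filter on dim probe sets (18193 genes, 0 to 253 called in a comparison, 0 receptors) the calls were lost in all 5 comparisons that had any, and the cause was not tested. Without each array in turn the count was 0 to 0 in each comparison, and it was 0 without both WT arrays and 0 without both ACKR2-/-ApcMin/+ arrays, where fewer residual degrees of freedom remain and at most 66 of all genes were called. Among single receptor values, 0 changed sign where called; 653 of those under settings that kept all arrays stayed on the same side of the threshold, 13 no longer passed (10 of them with no filter) and 6 newly passed. Limits: the dim receptors (Ackr2, Ackr4, Ccr9 in colon) lie near the floor, the pools hide differences between animals, and slide, scan date and background correction were not given in the sources used here.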
